A study of Tribolium castaneum with 6 samples.

Results

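The control larvae of an RNA interference experiment in the red flour beetle Tribolium castaneum were described on their own, through the 3 libraries labelled dsEGFP among the 6 of the series. The larvae were of the Georgia-1 (GA-1) strain, kept on flour with 5% yeast at 30 °C with the humidity held at 50%. The injected dsRNA, about 200 ng in 200 nL per larva, matched EGFP, a reporter foreign to the beetle's genome. Larvae were 20 days old at injection and unsexed, and each library came from a pool of 10 collected 6 days afterwards. The 3 pools are independent replicates per the labels, and they are numbered here in the order of their records, so a number carries no pairing. The other 3 libraries, from the knockdown arm (dsTcAMPKα), were not used. Injection and a foreign dsRNA are thus part of the state described, and uninjected larvae and other stages were not analysed here.

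A late larva of this beetle feeds, stores protein and fat for metamorphosis, and carries a chitin cuticle that is renewed at each moult. Its fat body makes hexamerins, storage proteins that accumulate in the blood before pupation. Its midgut is lined by a peritrophic matrix of chitin and protein. Moulting is driven by ecdysteroids, while juvenile hormone keeps the moult larval. The pools hold all these tissues together, so fewer cells of a type and less RNA per cell cannot be told apart.

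FPKM, the fragments of a transcript scaled to its length and to the size of the library, were added up over the transcripts of each gene name. The sums covered 31944 transcripts in 15099 genes, and 783 of the genes were assembled loci with no gene name. Expression above 0 was listed in all 3 libraries for 12796 genes, and 922 genes were listed at 0 in every library. The genes at 0 included 142 of the 219 microRNA genes and 21 of the 45 tRNA genes, in libraries made from RNA enriched with oligo(dT). A mean FPKM of at least 10 was reached by 6602 genes, of at least 100 by 1005 and of at least 1000 by 145, and 10864 genes had 1 or more. Summed coverage times transcript length was 5.17 to 5.61 Gb per library. The files hold no read counts, so the precision of a value here is the spread over the 3 pools.

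The pools were not equally alike. Across these 10864 genes, log2(FPKM + 1) correlated at Pearson r = 0.979 between replicates 1 and 2. The r was 0.904 between replicates 1 and 3 and 0.901 between replicates 2 and 3. These are correlations across genes of the same libraries, and genes are not independent replicates. Between replicates 1 and 2, 65 genes lay at least 4-fold apart, against 424 genes between replicates 1 and 3 and 395 genes between replicates 2 and 3. Replicate 3 therefore stands apart from the other pools, and values are given for each pool below.

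How far genes varied between the pools was measured as the range of log2(FPKM + 1), the highest minus the lowest of the 3 values, so that a range of 2 is a 4-fold spread. The median range of the 10864 genes was 0.60, or 1.52-fold. At least 2-fold was reached by 2637 genes (24.3%), and at least 4-fold by 566 genes (5.21%). The odd pool of a gene is the one farthest from the middle of its 3 values. Of the 566, replicate 3 was the odd pool above both others in 199 (1.83% of the genes) and below both in 270 (2.49%). Genes where replicate 3 was highest or lowest but another pool was the odd one are not in these counts. Over all 10864 genes, with any range, replicate 3 was the highest pool for 49.0% and the lowest for 37.3%. The counts of list members given below stand against these shares. Replicate 1 was the odd pool in 33 genes above and 18 below, and replicate 2 in 28 above and 18 below. Without replicate 3, 65 genes were left at least 4-fold apart. A 4-fold range was found in 5.77% of genes averaging from 1 to 10 and in 3.81% of genes from 10 to 100. It was found in 10.1% of those from 100 to 1000 and in 13.8% of those of at least 1000. The pseudocount of 1 holds down the ranges of low genes, and the median range showed no such order, at 0.69 for genes from 1 to 10 FPKM and 0.69 for those of at least 1000. Across genes, Spearman's rho between range and mean FPKM was -0.12.

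Deviations between the pools moved with transcript length. Across genes, Spearman's rho between a library's deviation from the gene's mean and the length of its dominant transcript was 0.34 for replicate 1, -0.01 for replicate 2 and -0.18 for replicate 3. In replicate 3 the median deviation was -0.36 on the log2 scale for transcripts of 301 to 400 nt, 0.20 for those of 701 to 1000 nt and -0.40 for those over 5000 nt. With a smooth trend on length taken out of each library, 545 genes ranged at least 4-fold, of which 483 were among the 566. The part of length in single results was not tested.

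A small number of genes held much of the measured expression. The 10 most abundant genes of each library held 19.6% ± 1.75 of summed FPKM, the 20 most abundant held 24.6% ± 2.59 and the 100 most abundant held 42.7% ± 3.37 (SD, n = 3). The 10 most abundant genes held 19.8% in replicate 1, 21.1% in replicate 2 and 17.7% in replicate 3. It took 159 genes in replicate 1, 127 in replicate 2 and 186 in replicate 3 to reach 50% of summed FPKM. Between 2787 and 3340 genes were needed for 90%. Expression was thus most concentrated in replicate 2 and least in replicate 3, which the plot of cumulative share shows along the top 1000 genes. Of the 20 most abundant genes of each library, 9 were common to all 3 libraries, and 16 were common to replicates 1 and 2. Of the 100 most abundant, 55 were common to all 3.

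**Figure D1:**
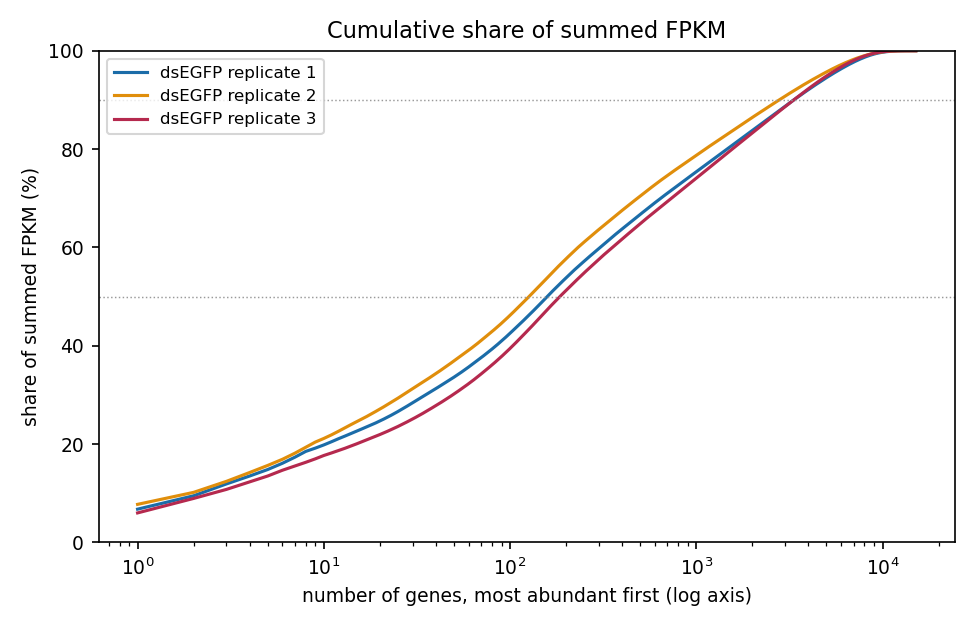
Cumulative share of summed FPKM (%, vertical axis) against the number of genes taken in order of abundance (horizontal log axis), 1 line per dsEGFP pool, with dotted lines at 50% and 90%. The lines cross 50% at 127 genes in replicate 2, 159 in replicate 1 and 186 in replicate 3.

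The mitochondrial sequence, NC_003081.2 in the Tcas5.2 build used by the files, gave 16.4% ± 2.15 of summed FPKM (SD, n = 3) from 14 of the 15099 genes. Its share was 17.4% in replicate 1, 17.8% in replicate 2 and 13.9% in replicate 3. The most abundant locus of the whole set lies there, at 12557 to 14612 on the minus strand. It has no gene name in the files (MSTRG.11) and had 53120, 64479 and 47475 FPKM in replicates 1, 2 and 3. It alone made up 6.84% of summed FPKM on average, and it ranked first in every library. The locus follows ND1 on the same strand, and none of the 14 genes is named as a ribosomal RNA. Whether it is one was not tested, and its FPKM are part of the shares given here.

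COX1, COX2 and COX3, the core subunits of cytochrome c oxidase, the last enzyme of the respiratory chain, were each abundant. COX1 had 18910, 20319 and 9292 FPKM in replicates 1, 2 and 3. COX2 had 12660, 11957 and 12097 FPKM and COX3 had 10375, 10347 and 9475 FPKM in the same order. The range of COX2 was 0.08 on the log2(FPKM + 1) scale, 0.18 with median-ratio size factors and 0.23 after the length correction. That of COX3 was 0.13, 0.33 and 0.42 in the same settings, and that of COX1, which was lowest in replicate 3, was 1.13, 1.33 and 1.41. CYTB, the cytochrome b of complex III, summed to 21394, 18637 and 23311 FPKM, but its name covers 2 transcripts at separate places. The transcript at 10280 to 11417 had 12721, 12266 and 6518 FPKM in replicates 1, 2 and 3. An assembled transcript at 12554 to 15881, on the strand opposite to the most abundant locus and overlapping it, had 8673, 6372 and 16793 FPKM. No strand protocol is stated, so reads of these overlapping loci cannot be told apart, and the sum for CYTB is uncertain.

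Subunits of NADH dehydrogenase, complex I of the same chain, were lower than these, and their ranges ran from 0.58 in ND2 to 3.44 in ND4L. ND2 had 2605, 2200 and 1746 FPKM in replicates 1, 2 and 3, ND4 had 2260, 2748 and 1644 FPKM and ND5 had 3047, 3589 and 1018 FPKM. ND2 and ND4 were thus more even than COX1. ND1 had 5127, 6115 and 2368 FPKM in replicates 1, 2 and 3, ND3 had 3468, 4296 and 757 FPKM, and ND4L had 444, 523 and 47.3 FPKM. Each of these 6 was lowest in replicate 3. ND6 had 2.18, 3.17 and 4.75 FPKM, far under every other gene of the sequence. ATP8 and ATP6 encode subunits of ATP synthase and overlap by a few bases. ATP8, at 156 nt the shortest of the 14, had 3336, 2887 and 361 FPKM, and ATP6 had 174, 145 and 406 FPKM. How reads were split over such short and overlapping genes is not stated, so the levels of both are uncertain.

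**Figure D2:**
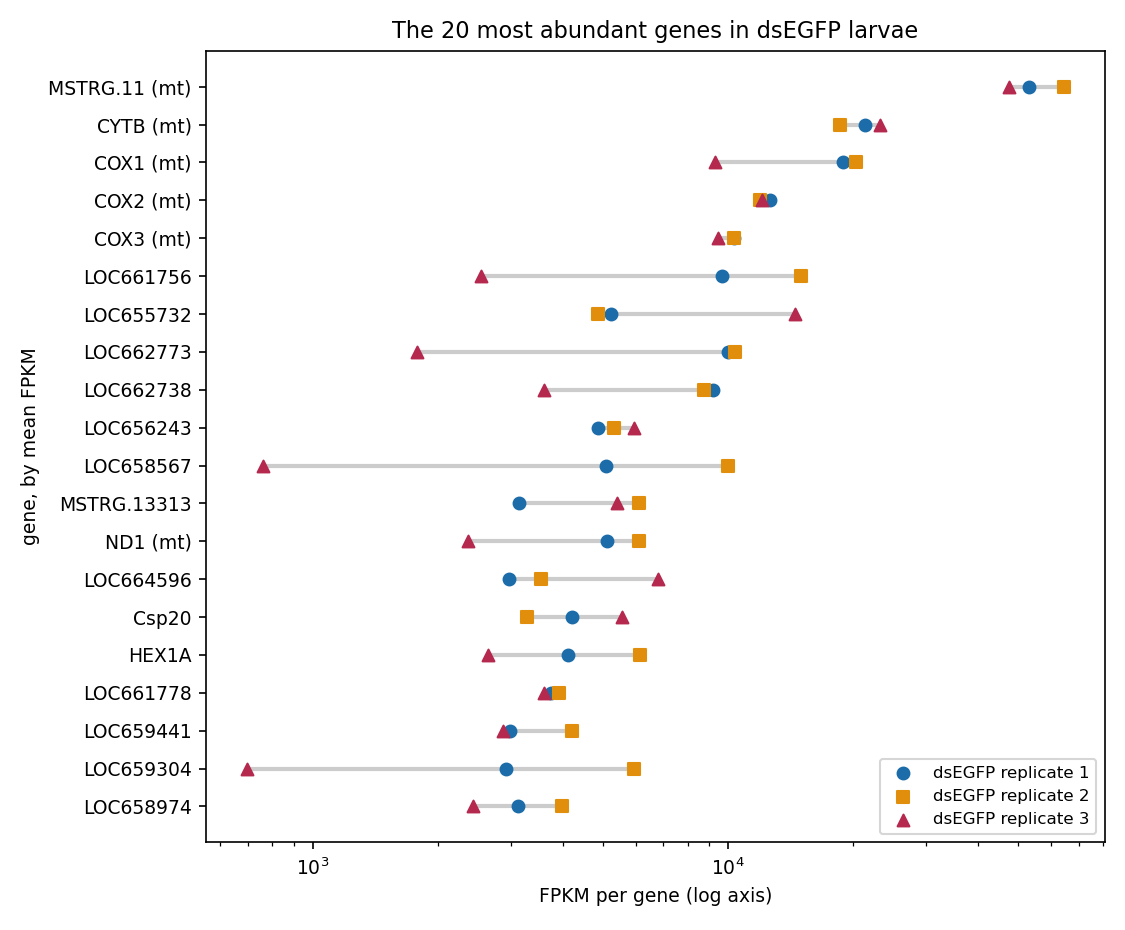
FPKM per gene (horizontal log axis) of the 20 genes with the highest mean over the 3 dsEGFP pools, 1 point per pool, with a grey bar from the lowest to the highest pool and (mt) marking genes of the mitochondrial sequence. COX2 lay between 11957 and 12660 FPKM, whereas LOC658567 lay between 758 and 9990 FPKM.

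Away from the mitochondrial sequence, the most abundant genes were short. The dominant transcripts of the 100 most abundant such genes had a median length of 671 nt and a median of 3 exons, against 1549 nt and 4 exons for all 10850 such genes at a mean of 1 or more. Spearman's rho between mean FPKM and length was -0.24 across the 10864 genes, and between mean FPKM and number of exons it was -0.02. Because FPKM is divided by length, the shortest transcripts weigh more in FPKM than in sequenced bases.

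LOC661756, a 318-nt transcript of 2 exons at NC_007419.2:2509702-2510078 with no description in the sources used here, had 9694, 15002 and 2539 FPKM in replicates 1, 2 and 3. LOC655732, a gene the authors' annotation places in lipid transport, had 5226, 4869 and 14508 FPKM. The pattern of the first was high in replicates 1 and 2, and that of the second was high in replicate 3.

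Tenecin-3 is an antifungal peptide known from the mealworm Tenebrio molitor. LOC662738, which the authors annotate as tenecin-3, had 9191, 8762 and 3612 FPKM in replicates 1, 2 and 3. Its neighbour LOC662773, annotated as tenecin-3-like, had 10014, 10436 and 1782 FPKM. They lie at NC_007422.5:491538-492019 and NC_007422.5:489657-490132, and copies this close can share reads. Both were lowest in replicate 3.

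Several abundant genes were close between the pools. LOC656243 had 4872, 5317 and 5956 FPKM in replicates 1, 2 and 3. LOC661778 had 3762, 3933 and 3611 FPKM, and LOC661814, which follows it on NC_007424.3, had 3128, 2967 and 3068 FPKM. LOC662040 had 2873, 3202 and 2974 FPKM. No description of these 4 genes was at hand. Their ranges, 0.08 to 0.29 on FPKM as deposited, were 0.29 to 0.45 after the length correction. Over the 20 most abundant genes off the mitochondrial sequence, 4 had a range under 0.5 on the log2 scale and 5 ranged at least 4-fold, as did 5.21% of all genes. Replicate 3 was the lowest of the 3 pools for 10 of the 20 and the highest for 7.

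The other genes among these 20 were of mixed kind. LOC655492, which the annotation places in cellular iron ion homeostasis, had 2123, 1955 and 3942 FPKM in replicates 1, 2 and 3. LOC664596, annotated as B1 protein, had 2967, 3545 and 6778 FPKM, and Efa1 had 2438, 2394 and 4087 FPKM. All 3 were highest in replicate 3. LOC658974, on an unplaced scaffold, had 3132, 3983 and 2430 FPKM, LOC659441 had 2987, 4205 and 2881 FPKM, and the unnamed locus MSTRG.13313, at NW_015451911.1:640-1027, had 3140, 6127 and 5413 FPKM. The sum of LOC659441 includes assembled transcripts on the strand opposite to its annotated form, with means of 646 and 637 FPKM. Its level is therefore uncertain. Csp20, Csp10, HEX1A, HEX2, LOC658567 and LOC659304 are given with their families below.

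Hexamerins, the larval storage proteins, made up 1.18% ± 0.478 of summed FPKM (SD, n = 3) over 6 genes. HEX1A had 4117, 6132 and 2644 FPKM in replicates 1, 2 and 3, HEX2 had 3073, 4372 and 1065 FPKM and HEX1B had 2075, 2463 and 465 FPKM. These 3 were highest in replicate 2 and lowest in replicate 3. HEX4 went the other way, with 208, 208 and 969 FPKM, and HEX3 had 117, 377 and 213 FPKM. HEX5 was the least abundant, with 40.2, 44.9 and 30.8 FPKM. HEX1A, HEX2 and HEX1B kept this order in every pool, and HEX4 was above HEX1B only in replicate 3. Of the 6 members, 3 ranged at least 4-fold (HEX1B, HEX2 and HEX4), against 5.21% of all genes, and the median range was 1.86 against 0.60 over all genes. HEX1A, HEX2 and HEX4 follow each other on NC_007423.3, at 13933222 to 13940965, 13942784 to 13946577 and 13948463 to 13951518, and HEX1B, at 13932729 to 13936132, overlaps HEX1A. The split of reads between HEX1A and HEX1B is therefore uncertain. The fat body list also held 3 desaturases, enzymes that put double bonds into fatty acids. TcasZ9desA had 286, 489 and 193 FPKM, Z9desB had 274, 314 and 287 FPKM and D12des had 74.2, 89.8 and 53.0 FPKM.

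Genes of stage and moulting were listed at low levels, and 9 of 10 averaged at least 1 FPKM. Kr-h1, the juvenile hormone response gene that keeps a moult larval, had 32.5, 29.1 and 41.6 FPKM in replicates 1, 2 and 3. Br-c, the broad gene that specifies the pupal stage, had 74.7, 32.8 and 12.7 FPKM. Br-c thus ranged 2.47 on the log2 scale and Kr-h1 0.50, with opposite pools highest. The ecdysteroid receptor pair Ecr and Usp had 26.0, 18.2 and 15.2 FPKM and 43.4, 32.6 and 20.7 FPKM. Cyp18a1, which inactivates ecdysteroids, had 84.2, 78.2 and 66.3 FPKM, and Cyp314a1, which makes the active hormone from ecdysone, had 11.6, 11.2 and 4.92 FPKM. Bursa and Bursb, the subunits of the tanning hormone bursicon, had 5.60, 4.12 and 1.80 FPKM and 5.98, 5.74 and 1.43 FPKM. The juvenile hormone acid methyltransferase gene Tcjhamt stayed under 1 FPKM, at 0.64, 0.52 and 0.28. Of the 9 genes, 8 were highest in replicate 1 and 8 were lowest in replicate 3. Over all genes replicate 1 was highest for 36.0% and replicate 3 lowest for 37.3%. Br-c was the only member of the 9 to range at least 4-fold, and the median range was 1.03.

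Enzymes and yellow proteins of cuticle tanning, the hardening and darkening of new cuticle, were in part highest in replicate 3. Th, tyrosine hydroxylase at the head of the pathway, had 36.2, 27.9 and 174 FPKM in replicates 1, 2 and 3. Ddc, the dopa decarboxylase that follows it, had 29.3, 26.8 and 80.5 FPKM. Lac2, the laccase that oxidizes catechols in the cuticle, had 51.7, 49.0 and 25.7 FPKM. Th and Lac2 therefore had opposite patterns. Among the yellow genes, Y-b had 38.4, 41.5 and 173 FPKM and Y-e3 had 39.9, 21.9 and 138 FPKM. Y-c, at 236, 218 and 272 FPKM, and Y-f, at 126, 138 and 118 FPKM, were the most abundant and were nearly even. Of the 11 genes averaging at least 1 FPKM, among 17 in the list, 3 ranged at least 4-fold, all with replicate 3 highest (Th, Y-b and Y-e3). The median range was 1.16, and 8 of the 11 were highest in replicate 3, as were 49.0% of all genes.

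The cuticle list, the Cpap chitin-binding proteins and the genes annotated with chitin-based cuticle development, made up 0.148% ± 0.102 of summed FPKM (SD, n = 3). It does not hold all cuticle genes. LOC658567, annotated as cuticle protein 63 and given below with its run, is outside it. That gene alone held 0.648% of summed FPKM on average and was highest in replicate 2 and lowest in replicate 3. Of 30 listed, 28 averaged at least 1 FPKM. Of the 28, 6 ranged at least 4-fold, against 5.21% of all genes, and 19 were highest in replicate 3, as were 49.0% of all genes. LOC103315173 had 21.3, 39.8 and 768 FPKM in replicates 1, 2 and 3 and was the most abundant on average through replicate 3 alone. LOC657175 had 19.1, 6.38 and 162 FPKM. The next most abundant, Cpap3-c5 and Cpap3-b, had 125, 99.0 and 136 FPKM and 103, 89.4 and 157 FPKM. Replicate 3 lay above both others in 5 of the 6 members that ranged at least 4-fold, and the median range of the list was 1.22.

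In the chitin turnover list, 26 of 26 genes averaged at least 1 FPKM, at 0.704% ± 0.134 of summed FPKM (SD, n = 3). The list holds genes that build, cut or modify chitin, and also the chitinase-like Idgf4 and Idgf2. The chitinase Cht11 had 1116, 1436 and 2469 FPKM in replicates 1, 2 and 3. Idgf4 and Idgf2, chitinase-like growth factors, had 721, 660 and 1576 FPKM and 392, 359 and 765 FPKM. These 3 were highest in replicate 3. Cht8 went the other way, with 475, 645 and 75.8 FPKM, and it had the largest range of the list at 3.07. The chitin deacetylases Cda8 and Cda9 had 263, 270 and 250 FPKM and 442, 506 and 461 FPKM, with ranges of 0.11 and 0.20, and of 0.46 and 0.49 after the length correction. Chs1, the chitin synthase of epidermis, and Chs2, that of the midgut, were named here after their values were seen. Chs1 had 8.77, 6.27 and 4.76 FPKM and Chs2 had 39.7, 35.1 and 18.5 FPKM, so in these pools the midgut enzyme had the higher level per length of transcript. The median range of the list was 0.74, and 2 of the 26 ranged at least 4-fold, near the 5.21% of all genes.

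Peritrophic matrix proteins, which line the midgut, had a median range of 1.57 over 9 genes, and 2 of the 9 ranged at least 4-fold, against 5.21% of all genes. Pmp2-b had 535, 2045 and 1969 FPKM in replicates 1, 2 and 3, and Pmp2-a had 549, 703 and 173 FPKM. Pmp9 had 223, 295 and 24.5 FPKM, the largest range of the list at 3.54. Replicate 3 was the lowest pool for 7 of the 9 genes, as it was for 37.3% of all genes. Chymotrypsin-like proteinases of the midgut, whose Ctlp symbols had placed them in the immune list, were in part lowest in replicate 3 too. Ctlp-5a had 1689, 2413 and 643 FPKM, Ctlp-6c had 510, 468 and 283 FPKM and Ctlp-6e had 179, 193 and 117 FPKM. Gnbp2 and spz6 are immune genes of that list, Dl was placed there by its symbol, and the other 7 members are Ctlp proteinases. Gnbp2, a pattern recognition protein, had 116, 89.8 and 172 FPKM, and spz6, a spätzle-type ligand of Toll receptors, had 20.6, 5.57 and 31.6 FPKM. Dl, annotated with the Notch signaling pathway, had 26.8, 24.5 and 28.4 FPKM. In the whole list of 10, 9 averaged at least 1 FPKM, 3 ranged at least 4-fold and the median range was 0.93.

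**Figure D3:**
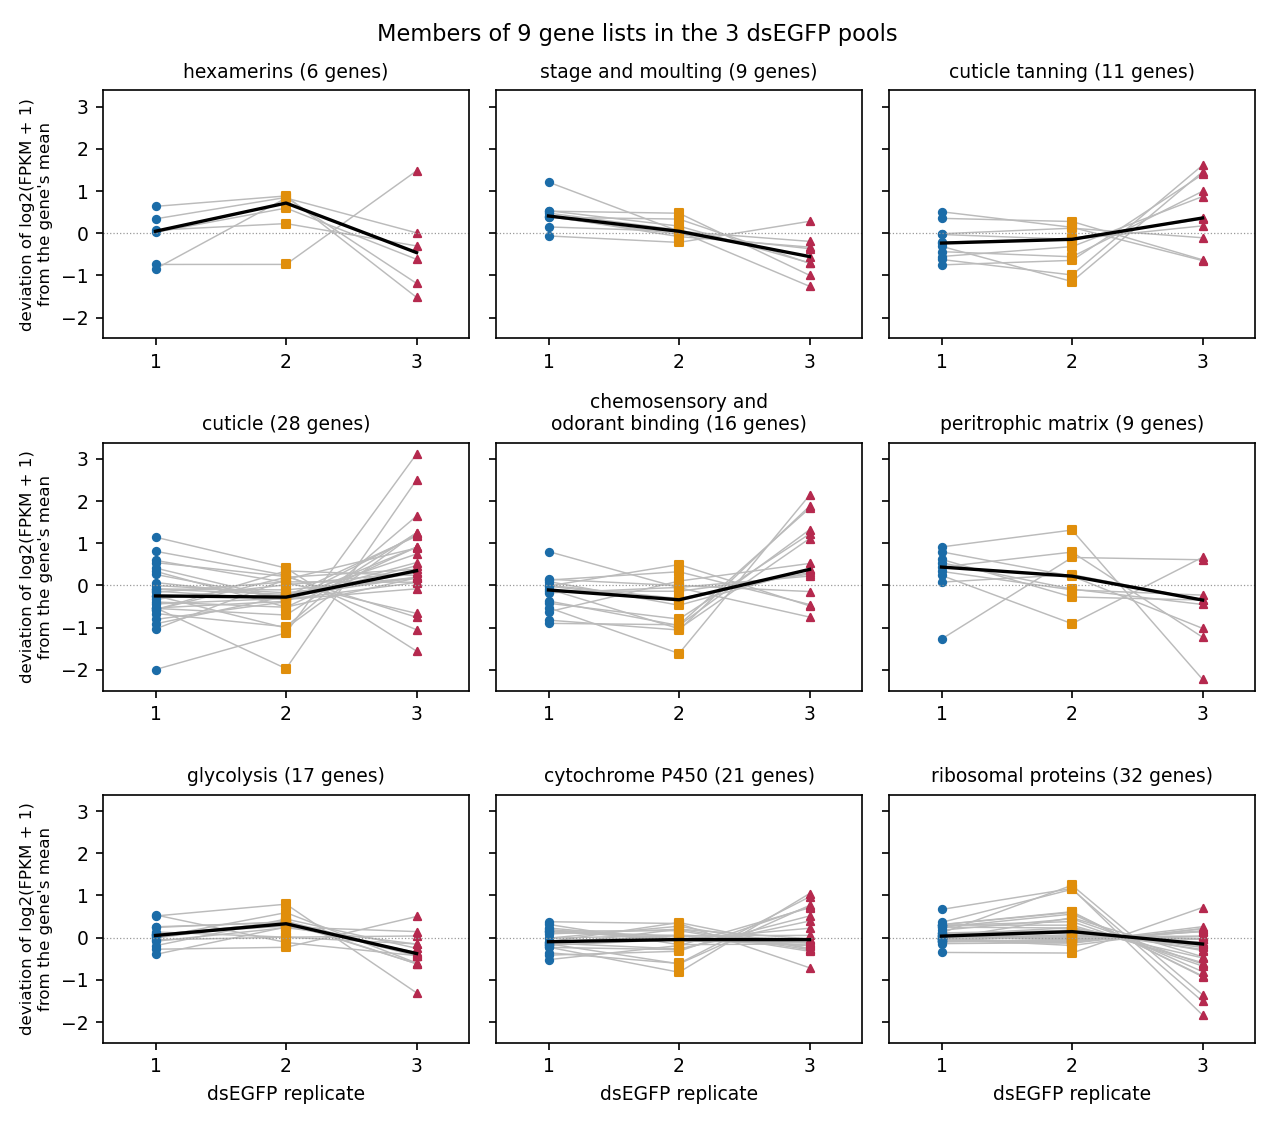
Deviation of log2(FPKM + 1) from the gene's own mean (vertical axis) in the 3 dsEGFP pools (horizontal axis) for the members of 9 gene lists averaging at least 1 FPKM. A grey line joins the values of 1 gene and the black line joins the medians, and the pools have no order. Of the stage and moulting genes, 8 of 9 were lowest in replicate 3, and of the cuticle tanning genes 8 of 11 were highest there.

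Chemosensory proteins are small soluble carriers of hydrophobic ligands and, despite their name, many are made outside sense organs. With the odorant-binding proteins they made up 1.07% ± 0.282 of summed FPKM (SD, n = 3), nearly all of it from Csp20, Csp10 and Csp18. Csp20 had 4205, 3292 and 5552 FPKM in replicates 1, 2 and 3, Csp10 had 2755, 1866 and 3354 FPKM and Csp18 had 1096, 987 and 895 FPKM. Of the 16 members averaging at least 1 FPKM, among 20 listed, 6 ranged at least 4-fold. In each of the 6, replicate 3 was the odd pool above both others, as in 1.83% of all genes. They were Csp17, Csp14, Csp9, Csp11, Csp12 and Csp7. Csp17 had the largest range at 3.75, with 6.45, 2.51 and 46.2 FPKM, and Csp9 had 4.15, 4.03 and 33.1 FPKM. Csp14, Csp12 and Csp11 lie at NC_007422.5:13943067-13949016, with Csp13, under 1 FPKM on average, among them. Csp17 and Csp9 lie before this stretch and Csp10 directly after it. Between Csp9 and the stretch lies Csp15, which had 0.92, 2.18 and 3.24 FPKM and ranged 1.15. Csp10 was also highest in replicate 3 but ranged only 0.85.

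Of 24 cytochrome P450 genes, 21 averaged at least 1 FPKM, with a median range of 0.49 against 0.60 over all genes. None of the 21 ranged at least 4-fold, which is near the 5.21% of all genes for a list of this size. Cyp9f2 had 1245, 1618 and 1382 FPKM in replicates 1, 2 and 3, Cyp4g14 had 548, 576 and 535 FPKM and CYP4Q7 had 417, 450 and 320 FPKM. The largest range, 1.86, belonged to the low CYP6BQ10, with 1.64, 0.75 and 5.36 FPKM. In sum the list held 0.382%, 0.410% and 0.405% of summed FPKM in replicates 1, 2 and 3.

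Genes of energy metabolism encoded in the nucleus ranged 4-fold in a share near that of all genes (5.21%), with 1 of 17 in the glycolysis list and 2 of 34 in the respiratory list. In the glycolysis list 17 of 22 genes averaged at least 1 FPKM, and 14 of the 17 were lowest in replicate 3, against 37.3% of all genes. Its leading member LOC663023 had 1042, 1272 and 782 FPKM in replicates 1, 2 and 3, and the next, LOC103313429, had 465, 486 and 496 FPKM. LOC657694 had 214, 197 and 176 FPKM. LOC658435, at 49.1, 59.9 and 13.2 FPKM, was the only member to range at least 4-fold, and the median range was 0.77. In the respiratory list all 34 genes averaged at least 1 FPKM and the median range was 0.60, equal to that of all genes. LOC662333, annotated as NADH dehydrogenase, had 1097, 1440 and 546 FPKM, LOC655995 had 903, 997 and 820 FPKM, and Cox4, a nuclear subunit of cytochrome c oxidase, had 741, 914 and 868 FPKM. LOC100142590 had the largest range at 2.33, with 23.7, 32.9 and 123 FPKM.

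The 32 genes that carry a ribosomal protein name or symbol made up 5.27% ± 0.401 of summed FPKM (SD, n = 3). Descriptions were at hand only for genes that the paper lists as differing between the knockdown and control arms. RpS3 and RpS6 had none. Apart from the 4 found by symbol, members were thus picked through a comparison that used these same control pools. The share and the ranges of this list hold for that subset and not for ribosomal proteins in general. Ribosomal protein genes with neither a description nor a symbol would be missed, so the list may be partial. By symbol alone there were 4, and the wider list was drawn up after values had been seen. LOC656276, acidic protein P2 of the large subunit, had 2282, 2247 and 2689 FPKM in replicates 1, 2 and 3, and LOC662265, S20 of the small subunit, had 1934, 2021 and 2293 FPKM. LOC661185, acidic protein P1, had 1647, 1631 and 3446 FPKM. The median range of the list was 0.40, below the 0.60 of all genes, and 3 of 32 ranged at least 4-fold. All 3 were among the 4 shortest transcripts of the list, from 225 to 338 nt, and all 4 were lowest in replicate 3. Rpl41 (298 nt) had 2032, 3498 and 555 FPKM, Rpl39 (225 nt) had 91.0, 200 and 32.4 FPKM and LOC659992 (338 nt) had 986, 1391 and 173 FPKM. The other 28 had a median range of 0.33 and none reached 4-fold. After the correction for length the range was 2.17 in Rpl41, 2.62 in LOC659992 and 1.90 in Rpl39, the last of them under 4-fold.

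RpS3, ribosomal protein S3 and the reference gene of the study's RT-qPCR, lies at NC_007419.2:7477925-7479784 and had 1005, 1006 and 1174 FPKM in replicates 1, 2 and 3. Its range was 0.22 on FPKM as deposited, which ranked 151 from the smallest among the 1005 genes averaging at least 100 FPKM. With median-ratio size factors its range was 0.18, and after the length correction it was 0.10. Its rank among the 1005 genes was not taken on those scales. The primers that the study used to measure it are shown because the level of every RT-qPCR target was set against this amplicon; no base is marked in capitals.
RpS3 forward: accgtcgtattcgtgaattgac
RpS3 reverse: acctcgatacaccatagcaagc
Both are 22 nt long. The 2 transcripts listed for RpS3 differed more between the pools than their sum. The 861-nt form had 500, 401 and 969 FPKM, and the 851-nt form had 506, 605 and 204 FPKM.

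On FPKM as deposited, the most even of the 1005 genes was LOC658071, annotated with ammonium transport, at 256, 258 and 260 FPKM in replicates 1, 2 and 3. LOC662804, annotated with proton transmembrane transport, had 322, 328 and 328 FPKM, and LOC656438 had 1044, 1071 and 1054 FPKM. The gene az had 566, 578 and 582 FPKM. A range below 0.1 was found for 34 of the 1005 genes. The next most even were LOC657294, LOC660093, LOC664362, LOC659089, LOC663331 and LOC658085, each with a range of at most 0.05. The ranking belongs to this scale. Over these 10 genes the range was 0.17 to 0.23 with median-ratio size factors and 0.12 to 0.36 after the length correction, and that of LOC658071 was 0.19 and 0.27. LOC660093 is annotated with response to heat and LOC659089 with fatty acid biosynthetic process.

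Lists that describe other tissues were small. The muscle list (sarcomere organization, thick filaments and contraction) had 6 of 8 genes averaging at least 1 FPKM and a median range of 0.91. Its leading gene LOC655736 had 868, 813 and 1605 FPKM in replicates 1, 2 and 3, whereas LOC664163 had 131, 124 and 128 FPKM. In the neuron list 16 of 20 genes averaged at least 1 FPKM, 2 ranged at least 4-fold and the median range was 0.79. Its most abundant member, Dat, is also in the tanning list and had 67.2, 71.7 and 98.8 FPKM. Syx1A, a syntaxin of synaptic vesicle release, had 53.5, 41.4 and 53.4 FPKM, and Akhr, the receptor of adipokinetic hormone, had 44.4, 53.8 and 30.4 FPKM. The acetylcholine receptor subunit nAChRa9 had the largest range with 4.95, 2.95 and 19.0 FPKM. Vasa, an RNA helicase of the germ line, had 23.3, 21.2 and 13.8 FPKM. The heat shock genes hsp68a and hsp68b stayed low, at 1.26, 1.01 and 3.35 FPKM and 1.77, 1.76 and 6.19 FPKM. Snf1a, the gene targeted in the arm not used here, had 77.3, 74.9 and 56.9 FPKM.

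With replicate 3 left out, the lists varied less; a range over fewer pools cannot be larger. Between replicates 1 and 2 alone, the median range of all 10864 genes was 0.22, and 1 member of any list, in the respiratory one, lay at least 4-fold apart. The median was 0.58 in the peritrophic matrix list, 0.38 in the hexamerins, 0.38 in the cuticle list and 0.36 in both the chemosensory and the stage list. It was 0.12 in the tanning list and 0.10 in the ribosomal list by annotation, both under that of all genes.

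The proteolysis list held 36 of the 456 genes that the annotation counts, because the copy of the annotation used here lists only 37 of them. Of the 36, 31 averaged at least 1 FPKM, 4 ranged at least 4-fold and the median range was 0.58. LOC656549 had 666, 597 and 237 FPKM in replicates 1, 2 and 3, P76 had 318, 461 and 62.5 FPKM and LOC655077 had 173, 253 and 236 FPKM. LOC660428 had the largest range at 3.11, with 0.03, 0.02 and 7.81 FPKM.

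Among genes averaging at least 10 FPKM, the 20 with the largest range mostly had no description at hand. The share of all genes with a description is not given here, and HEX1A and Csp20 had none either. The lack is thus no trait of these 20. LOC103313522, a 498-nt transcript at NC_007422.5:469017-469563, had 2665, 1649 and 12.2 FPKM in replicates 1, 2 and 3, the largest range of all at 7.66. The tenecin-3 pair lies further along the same sequence, with other genes between, and these 3 genes were all lowest in replicate 3. LOC103315019 had 1.61, 3.09 and 207 FPKM, and LOC658769, its neighbour on NC_007417.3, had 88.9, 53.0 and 2121 FPKM. Both were highest in replicate 3, as were LOC663818, with 207, 65.3 and 2241 FPKM, and LOC657340, with 8.82, 4.03 and 304 FPKM. LOC663629 had 6.53, 16.2 and 304 FPKM. LOC100142248, annotated as a homolog of macrophage migration inhibitory factor, had 66.9, 72.3 and 0.14 FPKM, and LOC659587, annotated with metabolic process, had 101, 153 and 2.81 FPKM. LOC657130, annotated with regulation of growth, had 254, 457 and 9.51 FPKM. Replicate 3 was the lowest pool for these last 3.

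Some large ranges came from replicates 1 or 2. LOC660742 had 7.02, 293 and 497 FPKM in replicates 1, 2 and 3, and LOC107398449 had 0.11, 25.4 and 51.1 FPKM, so replicate 1 was far below the others. LOC655551, annotated with lateral inhibition, had 357, 11.5 and 34.3 FPKM, LOC663738 had 57.7, 3.01 and 1.02 FPKM and LOC103314899 had 68.3, 4.29 and 4.59 FPKM, with replicate 1 above the others. LOC660995, annotated as LSm8 of the spliceosome, had 1.41, 82.6 and 1.86 FPKM, the farthest that replicate 2 lay above both others. LOC100141660 had 26.3, 0 and 33.1 FPKM. In the genes named here for replicates 1 and 2, that pool lay farther from both others than they lay from each other. Unnamed loci were also among the widest ranges. MSTRG.8439 had 133, 135 and 0 FPKM, and MSTRG.8441 had 0, 77.4 and 153 FPKM. Both lie in NC_007422.5:8832264-8842474 with MSTRG.8440, which starts at the same base as MSTRG.8441, so the values of those overlapping loci are uncertain. MSTRG.463, with 0.37, 4.04 and 82.6 FPKM, was highest in replicate 3.

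Genes that varied between pools tended to lie beside each other. Off the mitochondrial sequence, 163 of the 563 genes that ranged at least 4-fold (29.0%) had a direct neighbour that did so too, among genes averaging at least 1 FPKM. Over all 10850 such genes, 982 (9.05%) had a neighbour of that kind. Runs of at least 3 adjacent genes that all ranged at least 4-fold numbered 19 and held 77 genes. Position was examined after the ranges had been seen, and no test was made.

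The longest run held 12 genes at NC_007418.3:4075094-4098160. Every gene of it was highest in replicate 2, and 11 of the 12 were lowest in replicate 3. Together the 12 made up 1.70% of summed FPKM in replicate 1, 3.82% in replicate 2 and 0.372% in replicate 3. LOC658567, annotated as cuticle protein 63, had 5092, 9990 and 758 FPKM in replicates 1, 2 and 3, and its name covers 5 transcripts at 3 assembled loci. LOC659304, annotated as keratin-associated protein 19-9b, had 2925, 5929 and 696 FPKM. LOC107397480 had 929, 2179 and 40.3 FPKM, LOC658781 had 477, 2791 and 171 FPKM and LOC100141820 had 225, 1236 and 160 FPKM. The dominant transcripts were shorter than 600 nt in all genes but LOC107397480. The authors' descriptions in the run name cuticle proteins, keratin-associated proteins and prismalin-14, a protein known from the shell of a pearl oyster. Replicates 1 and 2, which were alike over all genes, differed by a median of 1.41 on the log2 scale in this run, and 3 of the 12 genes were at least 4-fold higher in replicate 2 than in replicate 1. Such tandem copies can share reads, so the level of a single gene of the run is less certain than the sum.

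**Figure D4:**
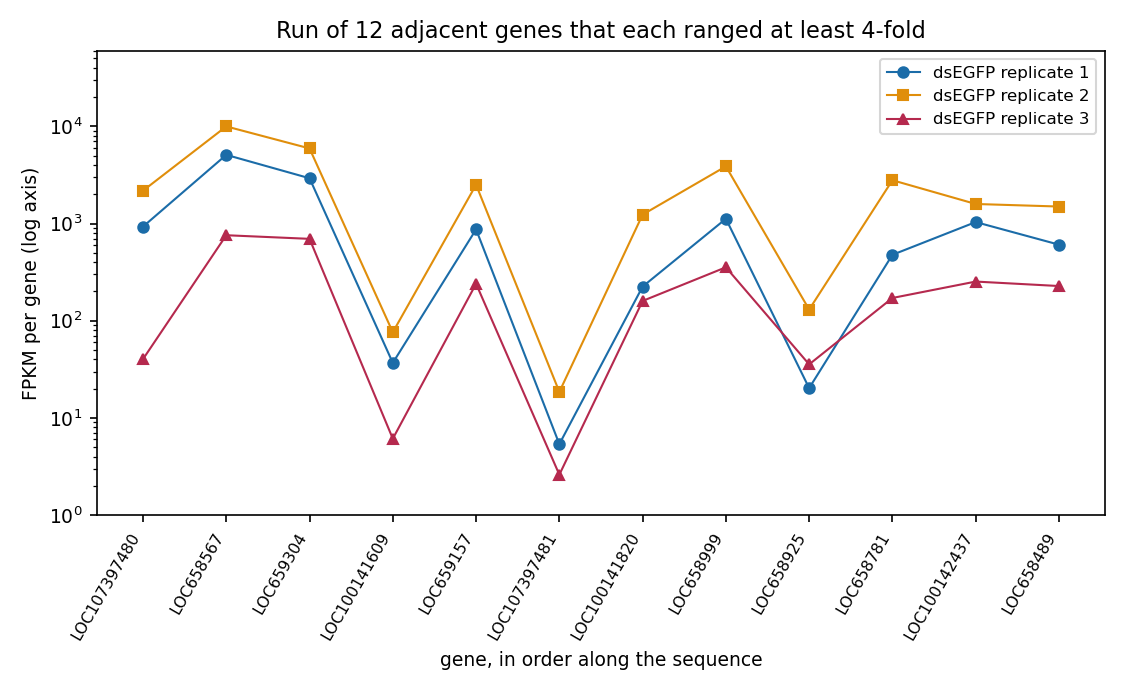
FPKM per gene (vertical log axis) of the 12 adjacent genes of the longest run, in their order along NC_007418.3 (horizontal axis), 1 line per dsEGFP pool. Replicate 2 is highest for all 12 genes and replicate 3 lowest for 11 of them, with LOC658925 the exception.

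Other runs had other patterns. The run of 6 genes at NC_007418.3:22354198-22381440 summed to 69.9, 38.0 and 888 FPKM in replicates 1, 2 and 3, and all 6 genes were highest in replicate 3. It includes LOC657175 of the cuticle list. The run of 6 genes at NC_007423.3:1656063-1691923 was split, with 2 genes highest in replicate 1 and lowest in replicate 2, and 4 genes highest in replicate 2 and lowest in replicate 3. These 4 included LOC100142411, with 14.0, 73.6 and 0.55 FPKM, and LOC100142208, annotated as prismalin-14, with 61.2, 240 and 14.6 FPKM. A run of 5 genes follows the longest one on NC_007418.3, and within it the order of the pools turned. Its first genes, LOC103313766 and LOC657951, were highest in replicate 2, at 40.4, 172 and 11.5 FPKM and 261, 1273 and 62.0 FPKM. Its last genes, LOC103313754 and LOC657788, were highest in replicate 3, at 104, 29.4 and 1079 FPKM and 314, 235 and 2506 FPKM.

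The dominant transcript, the most abundant of a gene by mean FPKM, was examined for the 6602 genes averaging at least 10 FPKM. Of these, 3455 had 1 transcript listed and 3147 had 2 or more. The dominant transcript of the 3147 held a median of 71.6% of the gene's FPKM. It held over 90% in 738 genes and under 50% in 575. In 2344 genes (74.5%) the same transcript was dominant in all 3 pools. In the other 803 the dominant transcript held a median of 49.1%, and in 76 of them each pool had a different one. Replicate 3 alone differed from the others in 376 genes, replicate 2 alone in 182 and replicate 1 alone in 169. In 917 of the 3147 genes the dominant transcript was one assembled by the authors and not an annotated one.

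**Figure D5:**
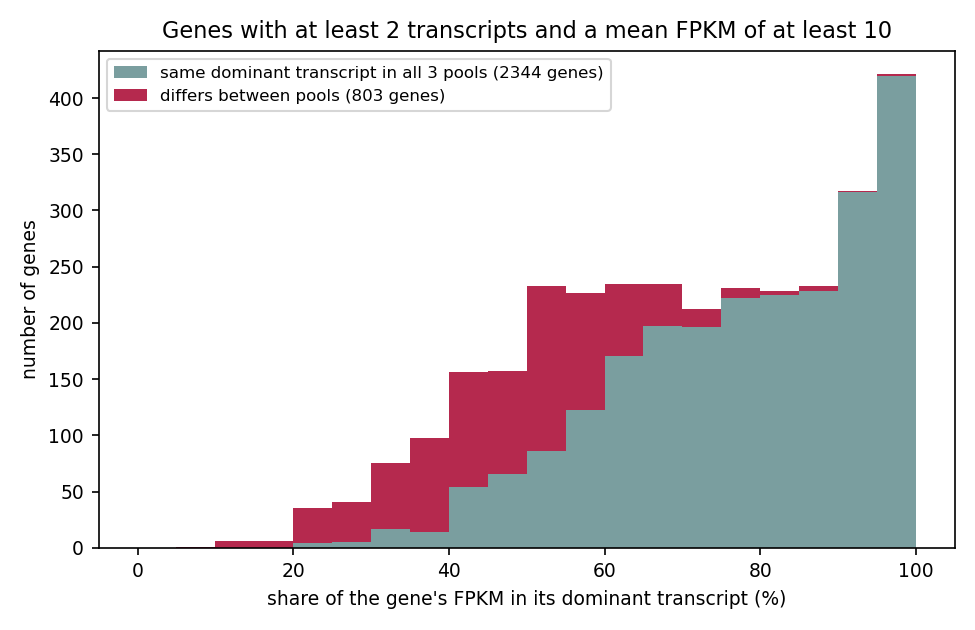
Number of genes (vertical axis) by the share of the gene's FPKM held by its dominant transcript (%, horizontal axis, in bins of 5 percentage points), for the 3147 genes with at least 2 transcripts and a mean FPKM of at least 10. The 803 genes whose dominant transcript differed between pools lie at a median share of 49.1%, and nearly all genes above 90% kept the same transcript.

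Many of the most abundant genes expressed practically 1 transcript. The dominant transcript held 99.4% of LOC655732, 99.0% of HEX2, 92.8% of HEX1A, 99.6% of LOC103315238 and over 99.9% of LOC655420. In LOC655732, HEX1A and LOC655420, minor transcripts lie on the strand opposite to the dominant one, so the share there is not one of forms alone. LOC655492 and LOC655909 were shared between 2 forms, the dominant ones holding 69.8% and 76.1%. The dominant transcript held 68.4% of LOC658567, 50.3% of CYTB and 30.4% of LOC659441. At the other end, LOC660391 had 33 transcripts and none held more than 9.34% of its FPKM averaged over the pools, LOC659440 had 38 and its dominant form held 12.9%, and LOC660229 had 30 with a dominant share of 13.2%. Lola, longitudinals lacking, a transcription factor gene known in Drosophila for its many alternative last exons, had 13 transcripts listed, and the dominant one held 29.7%. Low dominant shares, between 20.8% and 30.0%, were also found for LOC663001, LOC659358, LOC659350, LOC664111, LOC661454 and LOC662595. The names LOC660391, LOC660229 and LOC663001 each cover assembled transcripts on both strands. A low share in these does not show many forms of a single gene.

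Changes of form are given for the 10 most abundant of the 803 genes whose dominant transcript differed between pools, which include CYTB and RpS3. In Pmp2-b a 578-nt transcript had 42.3, 2039 and 1955 FPKM in replicates 1, 2 and 3 and a 1870-nt transcript had 493, 6.25 and 14.0 FPKM. The longer form starts upstream of the shorter and ends at the same base. The total of Pmp2-b was lowest in replicate 1, where the longer form was dominant, and the part of this assignment in the total was not tested. For LOC659112, ribosomal protein L34, a 404-nt form had 1244, 1247 and 436 FPKM and an assembled 481-nt form had 202, 363 and 826 FPKM. P121 had an annotated form at 331, 328 and 341 FPKM, nearly even, and an assembled one at 299, 415 and 0 FPKM. In LOC662463 the assembled 675-nt form had 207, 12.5 and 1096 FPKM while the annotated form of 2165 nt had 230, 206 and 160 FPKM. The pair of LOC660521 had 500, 310 and 406 FPKM for the 536-nt form and 116, 333 and 494 FPKM for the 560-nt form. The forms of LOC662005, of 1057 and 1064 nt, had 247, 302 and 468 FPKM and 257, 325 and 183 FPKM. In LOC659441 an assembled form of 972 nt had 936 FPKM in replicate 1 and was listed at 0 in the other pools. In LOC664009 an assembled form of 1502 nt had 587 FPKM in replicate 1 against 165 and 120 FPKM in replicates 2 and 3. Forms that differ by a few bases share nearly all their reads, so a change between them is less certain than a change in the gene's sum.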

How the data were processed

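RNA was enriched with oligo(dT) from total RNA of pooled larvae. HISAT2 and StringTie are named in the submitters' processing notes, beside TopHat2 and Bowtie2, and the build was Tcas5.2; versions are not given in the sources used here. For every transcript the authors deposited an FPKM value and a coverage signal (mean read depth, with no scaling between libraries). The dsTcAMPKα files were not used. FPKM were summed by gene name, or by assembled locus where there was none, with Python 3.11.15, pandas 2.3.3 and statsmodels 0.14.6 (lowess, span 0.4). Ranges use log2(FPKM + 1), which understates differences of low genes. There is 1 condition, so no test was made.

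Named genes were drawn from the 20 most abundant, with and without the mitochondrial sequence; at a mean FPKM of at least 10, the 20 with the largest range and, per library, the 5 farthest above and 5 farthest below both others; at a mean of at least 100, the 10 most even and RpS3; the 10 most abundant genes with several transcripts, the 10 with the most even transcripts and 10 whose dominant transcript differs; in each list the 3 most abundant and the most varying; and Snf1a. Rule and lists were chosen with earlier results of these data known. Runs of neighbours, the ribosomal list by annotation, hexamerins alone and other members beyond these were chosen after values were seen. Process terms are the authors' annotation. Gene descriptions are theirs too, at hand only for genes the paper lists as differing between the arms. Ranges and the length correction were run on simulated data with straight trends on length and genes changed in replicate 3 alone. The trend of replicate 3 in the real data is curved. The simulation thus checked the calculation and not how well the correction suits these libraries. Promoter sequences were not analysed here.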

Additional observations from a re-analysis of the deposited data

How the results depend on the processing

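No paired analysis was possible because only 1 group was described. The 10, 20 and 100 most abundant genes held 24.2%, 27.8% and 40.4% of estimated bases (coverage times length), 9.59%, 14.3% and 33.5% of FPKM without the mitochondrial sequence, and 14.5%, 19.5% and 38.8% with named genes only. Without the mitochondrial sequence 249 genes held 50%. At least 4-fold were 879 genes with a pseudocount of 0.1, 255 with 5 and 320 at a mean FPKM of at least 10. With replicate 3 as the odd pool above both others there were 113 with a pseudocount of 5. With replicate 3 as the odd pool below there were 441 with a pseudocount of 0.1, 91 with 5 and 131 at a mean of at least 10. Leaving out 1 replicate gave 65 to 424 genes, the 65 without replicate 3. The count with no filter stayed at 566 by construction, since a mean under 1 cannot reach the range. Median-ratio size factors, scaling to equal sums (TPM), quantile normalization, the length correction and the sum by assembled locus gave 523 to 637. Without mitochondrial, short and long genes, a setting added after seeing the data, 441 were left. The dominant transcript held a median of 69.9% at a mean FPKM of at least 1, 78.1% at 50 and 80.6% with annotated transcripts only, and over 90% in 1136 genes at a mean of at least 1 and 238 at 50. The share of genes whose dominant transcript differed was 13.5% to 19.7% with 1 replicate left out, 13.5% without replicate 3. Of 20 gene lists, 17 had a median range above that of all genes, and 13 to 19 did under the alternatives. The lists are not independent, as the hexamerins lie within the fat body list and the ribosomal list by symbol within that by annotation. The 17 include the germ line list of 1 gene, the heat shock list of 2 and the respiratory list, whose median equals that of all genes at 0.60. Of 685 values of single lists and genes under the alternatives, 130 moved by more than the spread between pools, 56 of them without replicate 3. The cause of these shifts was not tested. Depth limits low genes, but without counts no floor can be given.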
